A study of Mus musculus with 48 samples.

Results

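The choroid plexus genes described here are Ttr, Kl, Folr1, Enpp2, Clic6, Otx2, Aqp1, Slc4a5 and Cldn2, 9 of the 19752 genes with a symbol on the mRNA arrays. They were chosen by name, and each was read from 1 probe, the one with the highest mean over the 24 mRNA arrays. All 9 had a probe. The probes of 8 genes were well above background on all 24 arrays, and the Cldn2 probe was so on 12 of them, 9 of the 12 cortex arrays and 3 of the 12 whole brain arrays. The RNA came from male Tg2576 mice, which carry the human amyloid precursor protein gene with the Swedish mutation under the hamster prion protein promoter (strain label Tg(APPSWE)2576Kha), and from male wild type (WT) C57BL/6J mice, without any treatment. Both genotypes were sampled at 10 months of age, when amyloid accumulation begins in this model, and at 17 months, when it has reached a plateau. At each age the tissue was cortex or whole brain, which gives 8 groups of 3 arrays each. The labels number the samples of a group without saying whether each came from a separate animal, so the p-values below measure the spread between these samples.

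The choroid plexus is a folded epithelium in the brain ventricles that secretes cerebrospinal fluid and forms the barrier between blood and that fluid. Its cells move ions and water from blood to ventricle and release carrier proteins, hormones and vitamins into the fluid. It is not part of the cortex, so its transcripts reach a cortical sample only with adhering plexus or through other cells that use the same genes. In such bulk RNA, fewer cells of a type and less RNA per cell cannot be told apart.

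The epithelium is also known for miR-204 and miR-211, microRNAs whose mature sequences are printed because they share the bases that pair with targets. Both were taken from RefSeq (GRCm38.p6), with the seed, bases 2 to 8, in capitals. The miR-204-5p sequence lies at chr19:22750610-22750631 and the miR-211-5p sequence at chr7:64205831-64205852, both on the plus strand. Counted from the 5′ end of miR-204-5p, they differ by A17U, at 1 of 22 positions, and 3 mature mouse miRNAs in the table hold this seed.
miR-204-5p: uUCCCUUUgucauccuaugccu
miR-211-5p: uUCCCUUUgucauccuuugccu

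Otx2 is the homeodomain factor of the list, and the letters searched in promoters were TAATCC and GGATTA, the same site read on either strand, in the 250 bases before each gene start of RefSeq. Of 27025 genes, 7.21% had the site before at least 1 start. Promoters of 5 of the 9 choroid plexus genes were in the table, and the site was found before 1 start of Otx2 itself, 211 bases upstream. The stretch printed around it lies at chr14:48665303-48665332 on the minus strand, before 1 of the 4 listed starts of Otx2. The capitals mark the site.
Otx2 promoter: cgtgtgcccctcGGATTAtctcgttagttt
Among 25 further genes of choroid plexus epithelium, 24 had a promoter in the table and 4.17% of these held the site. The letters alone say nothing about binding.

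Each array held 59305 spots, of which 125 to 228 were set aside as outliers, and its 75th percentile of intensity lay between 507 and 824. Values are given as log2 levels, that is the log2 intensity of a probe minus the 75th percentile of its array, so that 0 is the level of that percentile. Levels of different probes are not compared. The arrays lay on 3 slides: slide 1 held all 10-month-old cortices and WT cortex 17 months replicates 1 and 2, slide 2 the other 17-month-old cortices, all WT whole brains of 10 months and Tg2576 whole brain 10 months replicate 1, and slide 3 the rest. Marker lists of other tissues set some arrays apart. The mean of 8 cerebellum genes lay between -3.20 and -1.91 on 11 cortex arrays and at 0.00 on WT cortex 17 months replicate 2, while Tg2576 whole brain 10 months replicate 2 (-2.74) and Tg2576 whole brain 17 months replicate 2 (-2.77) lay among the cortex arrays. The mean of 8 cortex neuron genes was 0.75 to 1.45 in cortex and 0.72 to 1.07 in whole brain.

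Ttr encodes transthyretin, the carrier of thyroid hormone and retinol that the plexus secretes in bulk. On the 10-month-old cortices its log2 level was 5.85, 5.73 and 3.58 in WT and 4.11, 5.95 and 5.0 in Tg2576 mice. On the 17-month-old cortices it was 2.66, 4.21 and 4.17 in WT and 5.61, 5.76 and 4.22 in Tg2576 mice. The lowest of the 12 values was that of WT cortex 17 months replicate 1. The genotypes overlapped at 10 months and barely missed doing so at 17 months, with 4.21 the highest WT and 4.22 the lowest Tg2576 value. In whole brain the 12 values ran from 3.73 to 5.16, and at 17 months from 4.31 to 4.71. The range over the arrays was thus 9.80-fold in cortex and 2.70-fold in whole brain.

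Folr1 encodes folate receptor alpha, which carries folate across the plexus. Its log2 level in cortex was 0.21, -0.15 and -1.65 (WT) and -1.15, 0.31 and -0.44 (Tg2576) at 10 months. At 17 months it was -2.08, -1.04 and -1.12 (WT) and 0.06, 0.16 and -1.16 (Tg2576). The arrays that were high or low for Ttr were high or low for Folr1, and the genotypes overlapped at both ages. In whole brain it ranged from -1.69 to -0.43.

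Kl encodes Klotho, the co-receptor of FGF23 that is also shed into cerebrospinal fluid. Its log2 level in cortex was -0.50, -0.82 and -2.21 (WT) and -1.66, -0.91 and -1.18 (Tg2576) at 10 months. At 17 months it was -2.30, -1.67 and -1.69 (WT) and -0.87, -0.93 and -1.81 (Tg2576). The same WT arrays, replicate 3 at 10 months and replicate 1 at 17 months, were the lowest. In whole brain Kl was between -2.09 and -1.30.

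Slc4a5 encodes a sodium bicarbonate cotransporter of the apical membrane that takes part in fluid secretion. In cortex its log2 level was -2.75, -2.82 and -4.70 (WT) and -3.76, -3.30 and -3.44 (Tg2576) at 10 months. It was -4.72, -4.01 and -4.43 (WT) and -2.97, -2.85 and -3.71 (Tg2576) at 17 months, where the genotypes did not overlap. In whole brain it ranged from -3.99 to -2.98, where the 17-month-old WT brains held 3 of the 4 highest values.

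Aqp1 encodes the water channel of the apical membrane. Its log2 level in cortex was -1.40, -1.61 and -3.22 (WT) and -1.16, -0.36 and -1.35 (Tg2576) at 10 months. At 17 months it was -2.66, -2.83 and -2.69 (WT) and -1.65, -1.77 and -1.49 (Tg2576). The Tg2576 cortices were above the WT cortices of their age on every array. At 10 months they barely were, with -1.40 the highest WT and -1.35 the lowest Tg2576 value. In whole brain it was -1.28, -2.57 and -2.12 (WT) and -2.0, -1.08 and -2.12 (Tg2576) at 10 months, and -2.40, -2.96 and -2.66 (WT) and -2.11, -2.37 and -1.17 (Tg2576) at 17 months. There the genotypes overlapped at 10 months and barely missed doing so at 17 months, with -2.40 the highest WT and -2.37 the lowest Tg2576 value.

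Otx2 encodes a homeodomain transcription factor that the plexus needs to form and that thalamus, midbrain, retina and pineal gland also express. Its log2 level in cortex was -0.35, -0.89 and -2.42 (WT) and -1.32, -0.28 and -0.82 (Tg2576) at 10 months, and -2.12, 0.23 and -1.28 (WT) and 0.49, 1.19 and 0.02 (Tg2576) at 17 months. Otx2 had the widest range of the list in cortex, 12.2-fold, against 2.04-fold in whole brain, where the values were from -0.34 to 0.70. The high WT value at 17 months, on replicate 2, came from the array with the raised cerebellum list.

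Cldn2 encodes a claudin of leaky tight junctions that lets cations pass between cells. Its log2 level in cortex ranged from -7.07 to -3.49, with the 2 highest values on WT cortex 10 months replicates 1 and 2. In whole brain it was between -6.90 and -4.57 and mostly not well above background, so Cldn2 was not tested there. Clic6, an intracellular chloride channel protein of secretory epithelia, lay between 0.11 and 1.46 in cortex and between 0.32 and 1.24 in whole brain. Enpp2 encodes autotaxin, which makes lysophosphatidic acid and is also expressed by oligodendrocytes, and it varied least, by 1.86-fold in cortex (4.71 to 5.60) and 1.33-fold in whole brain (5.08 to 5.49).

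**Figure D1:**
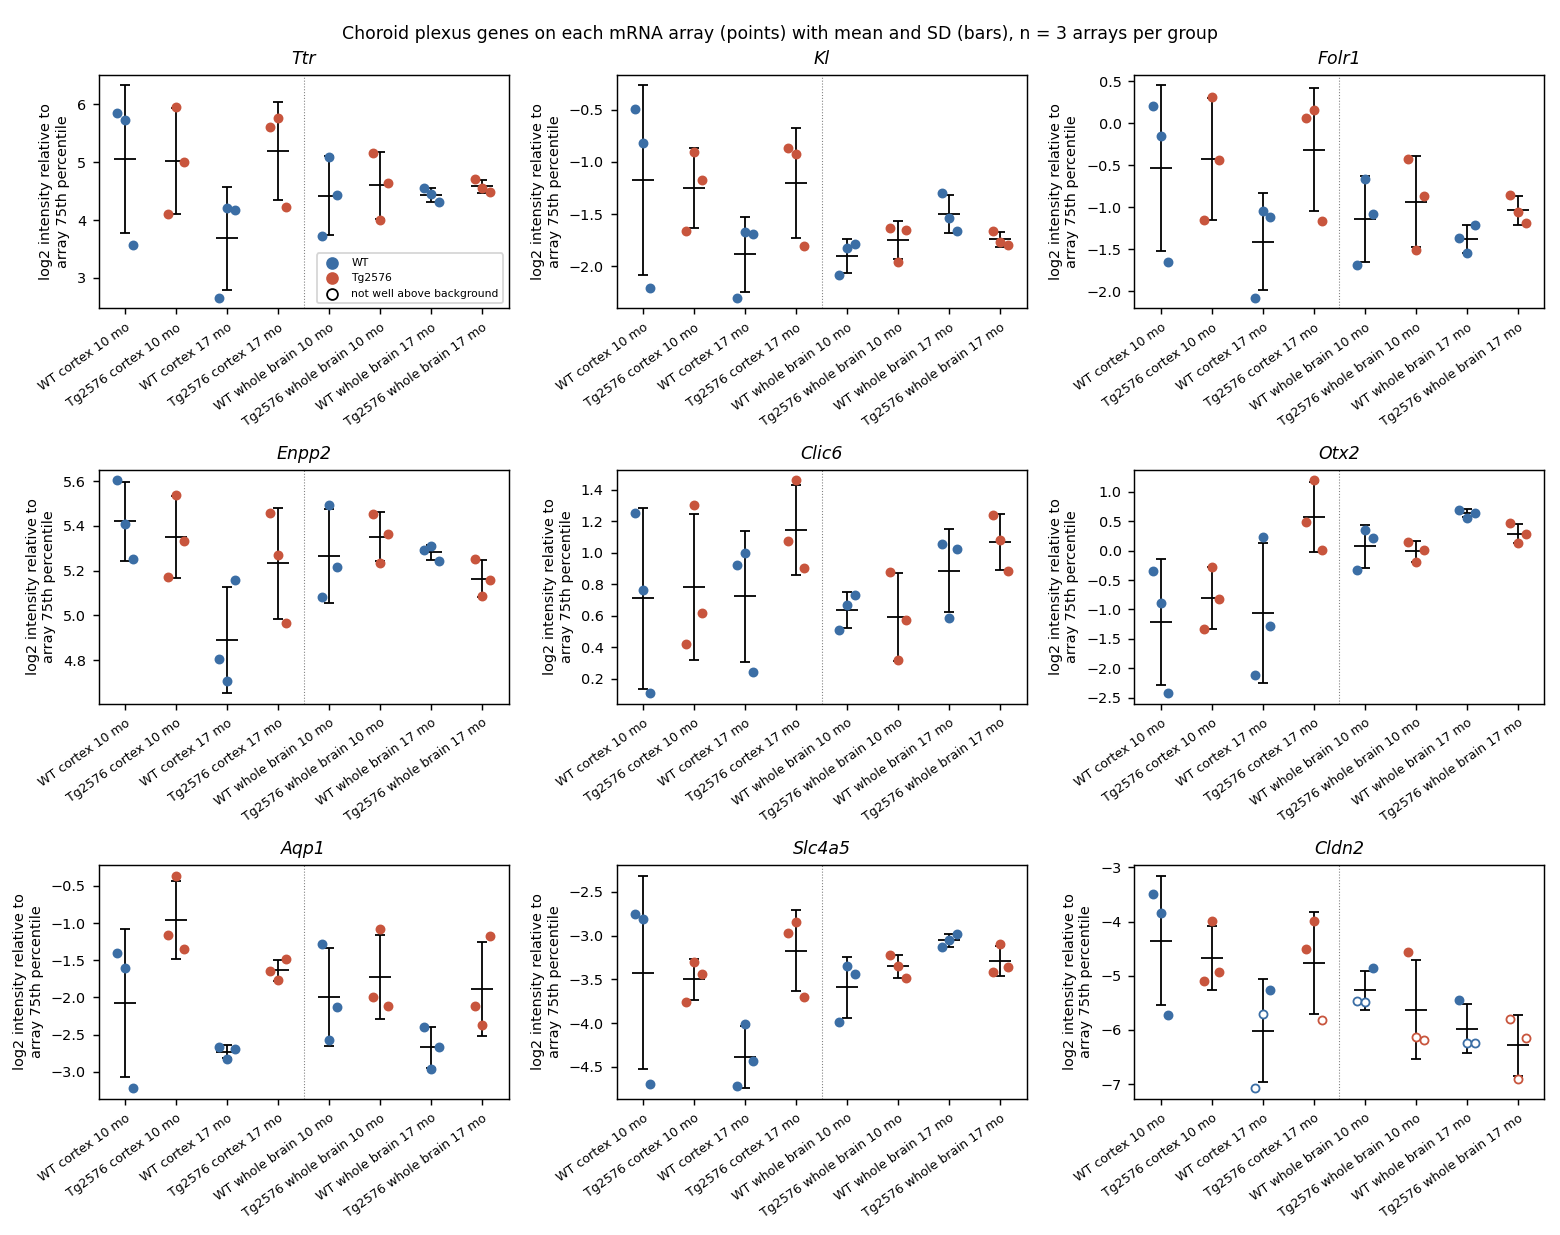
Log2 level of each choroid plexus gene (y axis, log2 intensity relative to the 75th percentile of the array) in the 8 groups of genotype, tissue and age in months (x axis). Points are arrays, open where the probe was not well above background, and bars are the mean and SD of 3 arrays. The cortex arrays left of the dotted line spread more widely than the whole brain arrays, from 2.66 to 5.95 against 3.73 to 5.16 for Ttr.

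When the 8 groups were ordered by their mean for each gene, only 4 of the 63 pairs of neighbours had arrays that did not overlap. These were the first and second group for Aqp1 (Tg2576 cortex of 10 months, -0.96 ± 0.52 (SD, n = 3), above Tg2576 cortex of 17 months, -1.63 ± 0.14), 17-month-old WT and Tg2576 whole brain for Kl (-1.5 ± 0.18 and -1.74 ± 0.07), and the lowest whole brain group and the next cortex group for Otx2 (-0.01 ± 0.17 and -0.81 ± 0.52) and for Slc4a5 (-3.59 ± 0.35 and -4.39 ± 0.36). For Ttr, Folr1, Enpp2, Clic6 and Cldn2 every group overlapped with the next.

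Replicates of a group differed more in cortex than in whole brain. The SD of Ttr within groups was 0.999 in cortex and 0.454 in whole brain, and that of Otx2 was 0.893 and 0.221. The ratio of both SDs was above 1 for all 9 genes, from 1.03 for Aqp1 to 4.04 for Otx2, with a median of 2.04, while the median over the 40484 probes tested was 0.984. In cortex the median SD of the 9 genes was 0.637, against 0.151 over all probes. Only 0.684% of the probes had a larger SD in cortex than Ttr, 0.892% than Cldn2, 1.11% than Otx2 and 1.90% than Folr1, but 32.1% than Enpp2. This is a description of these arrays and was not tested.

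The genes lay above or below their cortical means on the same arrays. On 4 cortex arrays all 9 genes lay above their mean over the cortices, and on 4 others at most 1 gene did. In whole brain no array had all 9 above, and 1 array had at most 1 above. The mean of the 9 genes was highest on WT cortex 10 months replicate 1 (0.49), Tg2576 cortex 17 months replicate 2 (0.48) and Tg2576 cortex 10 months replicate 2 (0.47). It was lowest on WT cortex 17 months replicate 1 (-1.40) and WT cortex 10 months replicate 3 (-1.22), where 7 and 8 of the 9 genes were among the 3 lowest cortex values. High and low arrays thus occurred within the same group.

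**Figure D2:**
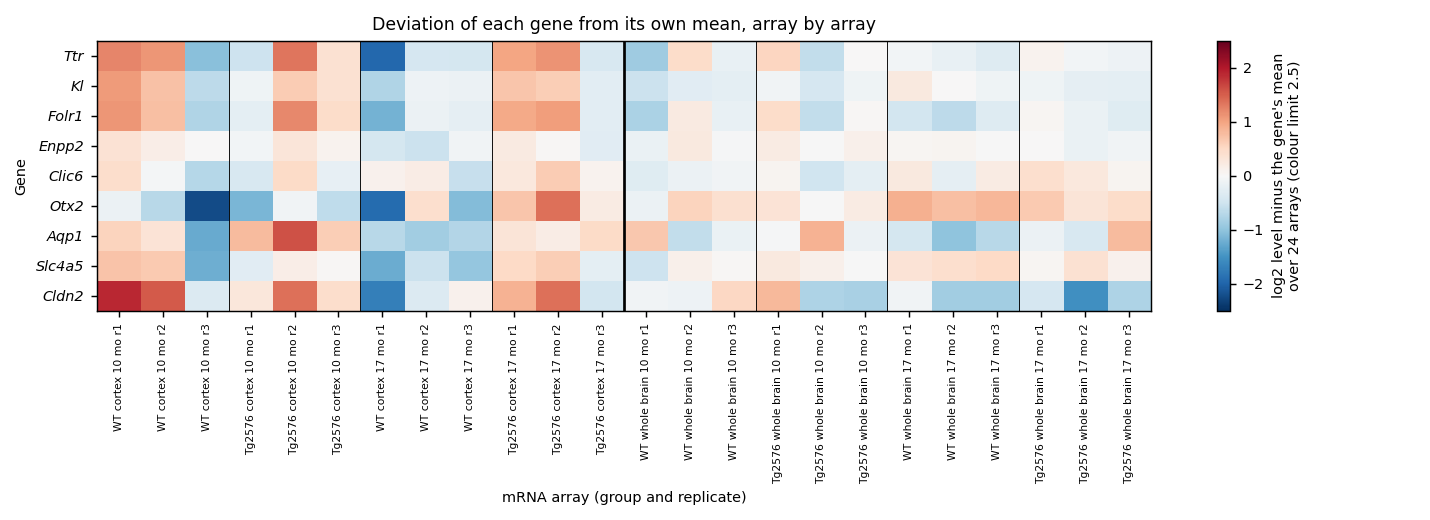
Deviation of each choroid plexus gene (rows) from its own mean over 24 arrays, in log2 units (colour, limited at 2.5), on each mRNA array (columns, by group and replicate). The columns of WT cortex 10 months replicate 3 and WT cortex 17 months replicate 1 are blue for nearly all genes. In the whole brain columns right of the heavy line the lowest deviation is -1.53, against -2.23 in cortex.

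Across the 12 cortex arrays, Ttr was correlated with each of the other 8 genes and with miR-204, and across the 12 whole brain arrays with 7 genes and miR-204, which made 17 relations. Cldn2 was left out in whole brain because it was seldom above background. In cortex, 8 of 9 relations passed the threshold of 0.05 after Benjamini-Hochberg adjustment (permutation test, two-sided). Pearson's r with Ttr was 0.99 for Folr1 (Spearman's rho 0.95), 0.97 for Kl (0.86) and 0.96 for Cldn2 (0.85). These 3 had an unadjusted p of 1e-05, the smallest that 100000 permutations can give, and an adjusted p of 5.67e-05 for r and of at most 0.00255 for rho. For Slc4a5 r was 0.93 (rho 0.90, adjusted permutation p = 0.000127 and 0.00153). For Enpp2 r was 0.79 (rho 0.78, adjusted permutation p = 0.00598 and 0.0094).

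Otx2 (r = 0.68, rho 0.66) and Aqp1 (r = 0.68, rho 0.53) were tied less closely to Ttr, with an adjusted permutation p of 0.028 for both r and of 0.0406 and 0.123 for rho. Clic6 did not pass for r (0.58, adjusted permutation p = 0.0791) and passed for rho (0.71, p = 0.0217). Without the 2 arrays farthest from the median of Ttr, r stayed between 0.92 and 0.99 for Folr1, Kl, Cldn2 and Slc4a5 and was 0.56 to 0.75 for the other 4 genes. Within slide 1, which held 8 of the cortex arrays, r was between 0.94 and 0.99 for the first 4 genes and 0.80, 0.74, 0.69 and 0.50 for Enpp2, Aqp1, Otx2 and Clic6. The other 4 cortex arrays, on slide 2, were too few. After the group means were subtracted, r was 0.99 for Folr1, 0.96 for Kl, 0.96 for Cldn2, 0.89 for Slc4a5 and 0.86 for Otx2.

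A change of 1 log2 unit in Ttr went with 0.93 units of Cldn2, 0.74 of Folr1, 0.68 of Otx2, 0.63 of Slc4a5, 0.54 of Kl and 0.53 of Aqp1 in cortex, but with 0.23 of Clic6 and 0.21 of Enpp2. In whole brain r with Ttr was 0.90 for Folr1 (rho 0.86, adjusted permutation p = 0.000238 for r) and 0.76 for Enpp2 (rho 0.72, p = 0.0117), and the other relations did not pass. After the group means were subtracted, r in whole brain was 0.94 for Folr1, 0.93 for Enpp2, 0.88 for Otx2 and 0.76 for Kl. It was 0.62 for Slc4a5, 0.59 for Clic6 and -0.74 for Aqp1. Without the 2 arrays then farthest from the median, r was 0.11 for Slc4a5, -0.56 for Aqp1 and 0.71 to 0.90 for the other genes. Over all 12 arrays rho was 0.29 for Slc4a5. The permutation put 7 of the 8 relations past the threshold. It shuffled the deviations freely, although they sum to 0 within each group. Its p-values are therefore too small, and no conclusion is drawn from that count. Within slide 3, with 8 whole brain arrays and no subtraction, r was 0.71 for Folr1, 0.63 for Clic6, 0.51 for Kl and 0.35 for Otx2. There r was 0.10 for Enpp2, -0.22 for Slc4a5 and -0.38 for Aqp1, so the relation of Enpp2 did not hold within the slide. Aqp1 ran against Ttr in whole brain (r = -0.47, rho -0.15, adjusted permutation p = 0.163 for r). Whether its relation differed between the tissues was not tested. Over all 36 pairs of the 9 genes the median r was 0.70 in cortex, with 18 pairs above 0.7, and 0.30 in whole brain, with 4 pairs above 0.7. These pairs share the same arrays and are given as a description.

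**Figure D3:**
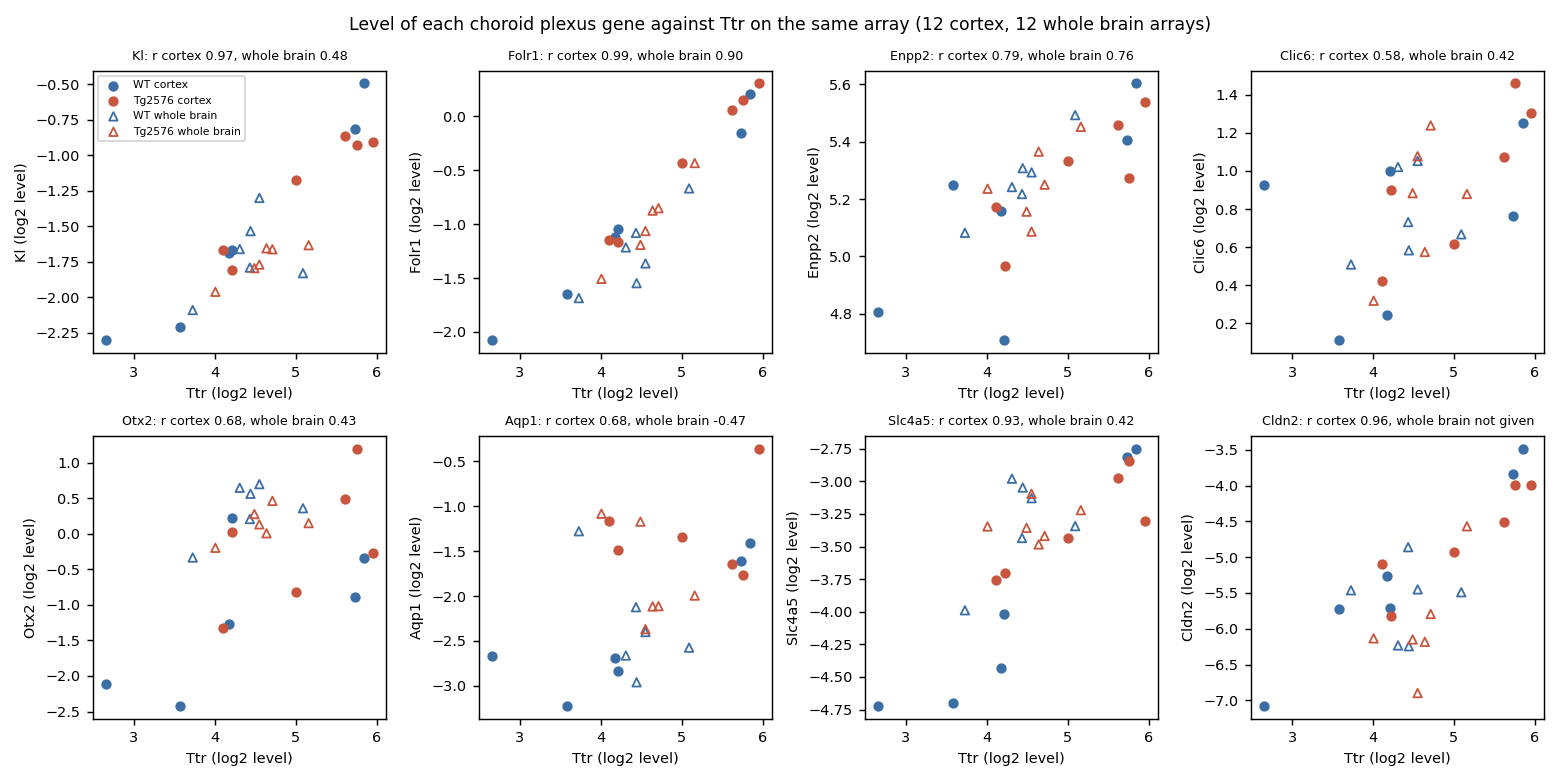
Log2 level of 8 choroid plexus genes (y axes) against that of Ttr on the same array (x axes), with filled points for 12 cortex and open triangles for 12 whole brain arrays, blue for WT and red for Tg2576. Folr1, Kl, Cldn2 and Slc4a5 follow Ttr closely in cortex (r from 0.93 to 0.99), and the whole brain arrays span less of each axis than the cortex arrays, for Ttr from 3.73 to 5.16.

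Of 16366 genes outside the list, those most like the mean of the 9 genes, ranked by the lower of the r over 12 cortex and the r over 12 whole brain arrays, were F5 (0.76), Kcne2 (0.73), Col8a2 (0.71), Calml4 (0.70), Txnl1 (0.68), Morn5 (0.67), Ccdc17 (0.67), Col8a1 (0.66), Dnali1 (0.65) and Yipf6 (0.65). F5 encodes coagulation factor V, Kcne2 a potassium channel subunit of the plexus, and Col8a1 and Col8a2 chains of collagen VIII. Among the 10, F5, Kcne2, Calml4 and Col8a1 belonged to a list of 25 further genes of choroid plexus epithelium. In cortex the median r of that list with the mean of the 9 genes was 0.77, and 11 of the 25 exceeded 0.8, as did 32 of the 16366 genes. In cortex the next highest medians were those of the thalamus and midbrain list (0.55) and the ependyma list (0.46). In whole brain the median r of the further choroid plexus genes was 0.35. That was below the medians of the ependyma list (0.56) and the oligodendrocyte list (0.41) and above those of the remaining lists.

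To see which other markers moved with the less coupled genes, Ttr, Otx2 and Aqp1 were set against the means of 10 marker lists in each tissue, 60 relations chosen after the values had been seen. Each r was taken without subtracting group means, so differences between groups enter it. Ttr followed the 25 further choroid plexus genes in cortex (r = 0.96, rho 0.98, adjusted permutation p = 0.0006 for both, from the smallest p that the permutations can give). In whole brain the same relation missed the threshold (r = 0.71, rho 0.66, adjusted permutation p = 0.0541 for r). Its r with the ependyma list was 0.50 in cortex (adjusted permutation p = 0.219), and with endothelium -0.64 (adjusted permutation p = 0.102), neither of which passed.

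Otx2 followed 9 genes of thalamus and midbrain, among them Tcf7l2, Lef1, Prkcd and Slc17a6. In cortex r was 0.93 (rho 0.92, adjusted permutation p = 0.0012 for both, 0.84 without the 2 farthest arrays and 0.85 within slide 1). In whole brain it was 0.84 (rho 0.85, adjusted permutation p = 0.0107 for r, 0.82 without the 2 farthest arrays and 0.86 within slide 3). In whole brain Otx2 also followed the oligodendrocyte list (r = 0.84, rho 0.86, adjusted permutation p = 0.0106 for r) and the endothelium list (r = 0.79, rho 0.81, p = 0.0296). Its r with the further choroid plexus genes was 0.70 in cortex and 0.73 in whole brain and did not pass (adjusted permutation p = 0.0569 and 0.0541). In whole brain the mean of Otx2 was 0.63 at 17 and 0.08 at 10 months in WT, and 0.29 and -0.01 in Tg2576 mice. The thalamus and midbrain, oligodendrocyte and endothelium lists were also higher at 17 months there in both genotypes. Their r with Otx2 thus include this difference and do not by themselves show a relation within groups.

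Aqp1 followed 10 genes of the olfactory bulb in whole brain (r = 0.91, adjusted permutation p = 0.0054, rho 0.74, p = 0.0665). There r was 0.81 without the 2 arrays farthest from the median and 0.92 within slide 3. The 3 whole brain arrays with a list mean above 0, WT 10 months replicate 1 (0.18), Tg2576 10 months replicate 2 (0.56) and Tg2576 17 months replicate 3 (0.04), were the 3 with the highest Aqp1 (-1.28, -1.08 and -1.17). Over the other 9 arrays r was 0.52. In cortex r was 0.72 and missed the threshold (adjusted permutation p = 0.0541), while rho was 0.79 (p = 0.0356), and r fell to 0.51 without the 2 farthest arrays. The highest list means in cortex, 0.76 and 0.90, were those of Tg2576 cortex 10 months replicates 1 and 2.

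**Figure D4:**
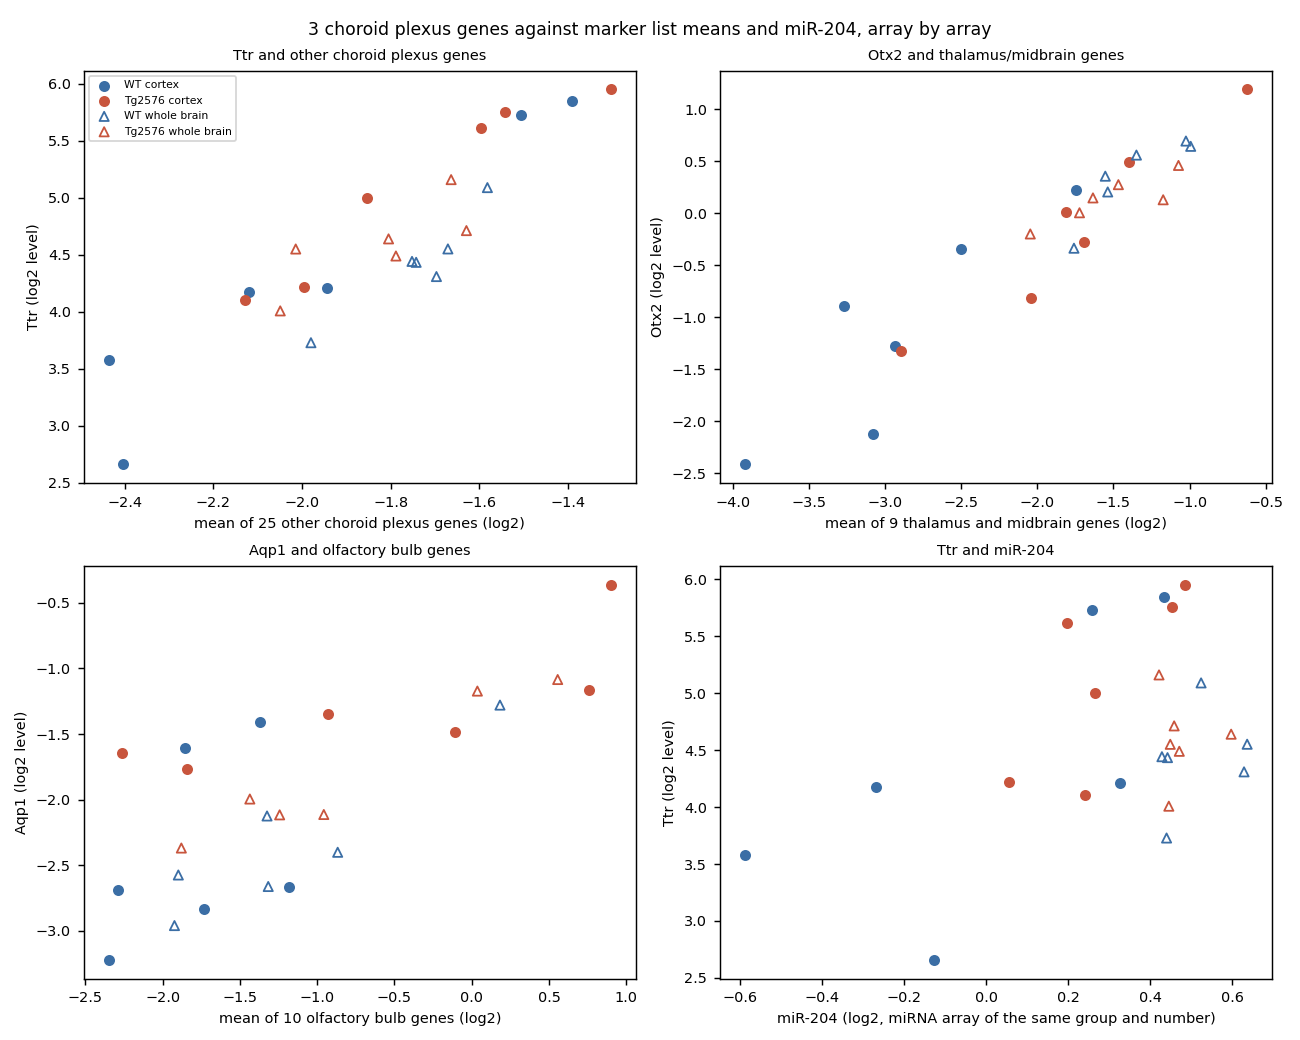
Log2 level of Ttr, Otx2 and Aqp1 (y axes) against the mean log2 level of marker lists on the same array and against miR-204 on the miRNA array of the same group and number (x axes), with filled points for cortex and open triangles for whole brain, blue for WT and red for Tg2576. In whole brain 3 arrays lie apart at the upper right for Aqp1 and the olfactory bulb list, and Otx2 runs with the thalamus and midbrain list in both tissues.

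The miRNA arrays carry 2 probes for miR-204, well above background on all 24 arrays. The same group and replicate number links them to the mRNA arrays, and the labels do not say that both used the same extract. The log2 level of miR-204 in cortex was 0.43, 0.26 and -0.59 (WT) and 0.24, 0.49 and 0.26 (Tg2576) at 10 months, and -0.13, 0.33 and -0.27 (WT) and 0.20, 0.45 and 0.06 (Tg2576) at 17 months. Its lowest value was on WT cortex 10 months replicate 3, where 8 of the 9 mRNAs were among the 3 lowest, and its highest on Tg2576 cortex 10 months replicate 2. In cortex r with Ttr was 0.73 (rho 0.81, adjusted permutation p = 0.0127 and 0.00584). In whole brain miR-204 lay between 0.42 and 0.64 and r was 0.08 (rho 0.15, adjusted permutation p = 0.798 for r). No probe of miR-211 was well above background on 10 of the 12 cortex arrays and 6 of the 12 whole brain arrays, so it was not correlated.

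The comparison of Tg2576 with WT mice asks what the transgene and its amyloid go with at each age. The methods' t-test is given in 2 ways, with Benjamini-Hochberg adjustment, and at the threshold the methods state, an unadjusted p under 0.05 and more than 1.5-fold. In the 10-month-old cortex 4 of the 9 genes were higher in Tg2576 mice and 5 lower, with a median log2 difference of -0.03, against 0.01 over the 39629 probes tested. Aqp1, at 1.12 (SE 0.53, 95% confidence interval -0.18 to 2.42, 2.18-fold), was the only gene whose arrays did not overlap. Its highest WT and lowest Tg2576 value were nearly equal. Arrays of both genotypes did not overlap for 17.2% of all probes. The differences of the other 8 genes ran from -0.32 (Cldn2) to 0.41 (Otx2), and that of Ttr was -0.03 (95% confidence interval -1.85 to 1.79).

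None of the 9 genes passed an adjusted p of 0.05 in limma's moderated test, nor did any probe (0%). None had an unadjusted p under 0.05, while 9.95% of all probes did. The methods' t-test called none after adjustment and none at the methods' threshold, which 0.818% of all probes passed. For Aqp1 the adjusted p in limma was 0.536. The olfactory bulb list was higher in the Tg2576 cortices for 10 of 10 genes, 8 of them without overlap, with a median difference of 2.10. Its part in the difference of Aqp1 was not tested. Without WT cortex 10 months replicate 3 the difference of Aqp1 was 0.55.

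In the 17-month-old cortex the 8 genes measured on all arrays were higher in Tg2576 than in WT mice, with a median log2 difference of 1.10, against 0.01 over the 38889 probes tested. Cldn2 was higher too, but was well above background on 2 of the 3 Tg2576 and 1 of the 3 WT arrays, so it entered the test through the group where it was high. With it the median was 1.10 as well. The arrays of both genotypes did not overlap for Ttr, Slc4a5 and Aqp1, 3 of the 9 genes, as for 16% of all probes. For Ttr the highest WT and the lowest Tg2576 value were nearly equal. Ttr was 2.86-fold higher (log2 difference 1.51, SE 0.57, 95% confidence interval 0.14 to 2.89), Slc4a5 2.32-fold (1.21, SE 0.28, 0.54 to 1.88, and 0.81 on a second, dimmer probe) and Aqp1 2.14-fold (1.09, SE 0.10, 0.84 to 1.34). Otx2 differed by 1.62 (SE 0.61) and Folr1 by 1.10 (SE 0.44), and both overlapped between the genotypes. The second, dimmer probe of Folr1 gave 0.50. The differences of Kl, Clic6 and Enpp2 were 0.69, 0.42 and 0.34. That of Cldn2, 1.24, rests largely on values not well above background.

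No gene of the list passed the test, nor did any of the probes (0%). The lowest adjusted p in limma's moderated test was 0.193, for Aqp1 (unadjusted p = 2.97e-05), followed by 0.502 for Slc4a5. An unadjusted p under 0.05 was found for 5 of the 9 genes (Ttr, Folr1, Otx2, Aqp1 and Slc4a5) and for 9.32% of all probes, and the methods' t-test called none after adjustment. At the methods' threshold it called Aqp1 and Slc4a5, 2 of the 9 genes, and 1% of all probes. An exact permutation test of 3 against 3 arrays cannot go below 0.1, which Ttr, Aqp1 and Slc4a5 reached. Within slide 2, which held the 3 Tg2576 arrays and WT replicate 3, all 9 genes were higher in Tg2576 cortex. The median was 0.90 and the difference of Ttr 1.02. The slide as a block gave the same 1.02 for Ttr, since that estimate also rests on this 1 WT array. Without WT cortex 17 months replicate 1 the difference of Ttr was 1.0.

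Other markers moved in the same comparison. Of the 25 further choroid plexus genes 20 were higher and 5 lower in 17-month-old Tg2576 cortex, with a median of 0.49 and none called, and the first 4 of the list differed by 1.04 (Kcne2), 0.06 (Kcnj13), 0.75 (Sostdc1) and 0.69 (F5). All 8 tested genes of the thalamus and midbrain list were higher, with a median of 1.16, and its mean was -3.08 to -1.75 in WT and -1.81 to -0.62 in Tg2576 cortices. By contrast, 10 of 11 genes of the meninges were lower, with a median of -0.58, and the list mean was 0.45 to 0.91 in WT and -0.22 to 0.45 in Tg2576 cortices. The 4 tested blood genes were lower (median -0.69), the olfactory bulb list differed by a median of 0.39 and the oligodendrocyte list by 0.29. No gene of these lists was called, and their part in the differences of the 9 genes was not tested.

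**Figure D5:**
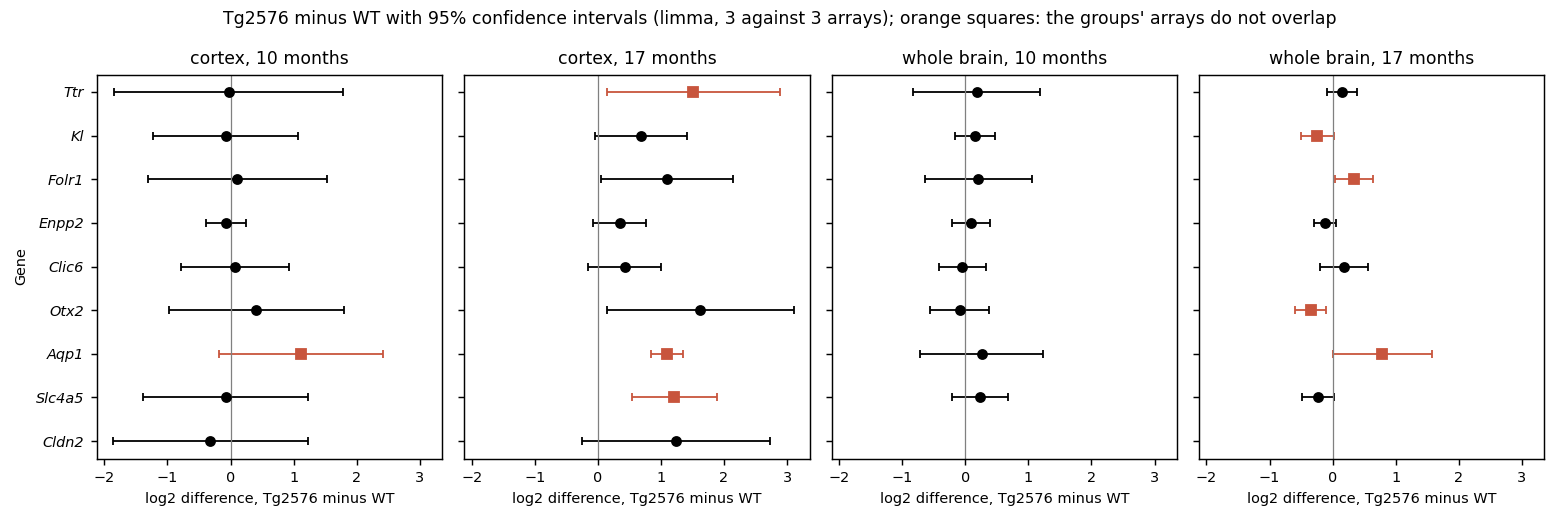
Log2 difference of Tg2576 minus WT for each choroid plexus gene (y axis) with its 95% confidence interval from limma (x axis), for each tissue and age with 3 arrays against 3. Squares mark genes whose arrays did not overlap between the genotypes, and Cldn2 was not tested in whole brain. All 9 genes lie above 0 in the 17-month-old cortex, with a median of 1.10, though Cldn2 was well above background on only 3 of those 6 arrays, and 8 of 9 lie between -0.32 and 0.41 in the 10-month-old cortex.

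In whole brain at 10 months 6 of the 8 tested genes were higher and 2 lower in Tg2576 mice, with a median of 0.17, against -0.00 over all probes. The genotypes overlapped for all 8 genes, while 17.6% of all probes did not overlap. Ttr differed by 0.19 (95% confidence interval -0.82 to 1.19). At 17 months 4 genes were higher and 4 lower, with a median of 0.02, against 0.01 over all probes. There the arrays of Folr1 (0.34, SE 0.13) and Aqp1 (0.79, SE 0.32) lay without overlap above those of WT, and the arrays of Kl (-0.24, SE 0.11) and Otx2 (-0.34, SE 0.10) below, in a comparison where 22% of all probes did not overlap. For Aqp1 the highest WT and the lowest Tg2576 value were nearly equal. Its highest Tg2576 value was on replicate 3, where the mean of the olfactory bulb list was above 0, and the part of that list was not tested. The second probe of Folr1 gave -0.53 in that comparison, so its probes disagreed in sign. Those of Slc4a5 did so at both ages in whole brain, with 0.24 and -0.29 at 10 months and -0.24 and 0.33 at 17 months. Ttr differed by 0.15 (95% confidence interval -0.09 to 0.39).

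No gene and no probe (0% at each age) passed limma's moderated test in whole brain, with adjusted p-values from 0.606 at 10 months and from 0.343 at 17 months. An unadjusted p under 0.05 was found for none of the 8 genes at 10 months and for 3 at 17 months (Folr1, Otx2 and Aqp1), against 11.4% and 13% of all probes. The methods' t-test called none after adjustment and none at the methods' threshold, which 0.777% and 0.955% of all probes passed. Among the further choroid plexus genes 7 were higher and 17 lower at 17 months (median -0.10). The cerebellum list was lower in Tg2576 whole brain of 17 months for 8 of 8 genes, 6 of them without overlap, with a median of -1.44, and its part was not tested.

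Whether the genotype difference changed with age was tested as an interaction. In cortex the difference at 17 months exceeded that at 10 months for 7 of the 8 genes other than Cldn2, with a median of 0.88, against -0.00 over all probes. For Ttr the interaction was 1.55 (SE 1.03, 95% confidence interval -0.75 to 3.84), for Slc4a5 1.29, for Otx2 1.21 and for Aqp1 -0.03. With Cldn2, whose WT values at 17 months were mostly not well above background, the median was 0.99. None was called by limma, whose adjusted p was at least 0.568, and 0% of all probes were. No unadjusted p of these genes in limma was under 0.05, while 9.41% of all probes had one. The methods' t-test, applied to this contrast, called none after adjustment. In whole brain the median interaction was -0.12 and again none was called (0%), with an unadjusted p of 0.0455 in limma for Kl (-0.40, adjusted p = 0.288). Kl was 1 of 8 tested genes there, and 16.8% of all probes had an unadjusted p under 0.05. Without WT cortex 17 months replicate 3, 291 probes were called in cortex, and without Tg2576 whole brain 10 months replicate 1, 718 in whole brain, none of them a gene of the list.

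Averaged over tissue and age, a comparison added after the values were seen, all 8 genes other than Cldn2 were higher in Tg2576 mice, with a median of 0.34 (0.28 with Cldn2), against 0.01 over all probes. None was called, while 0.212% of the probes were. Aqp1 came nearest, at 0.82 (SE 0.22, limma's adjusted p = 0.146), and the other 8 differed by 0.06 to 0.46. Since its controls are those of the comparisons above, it adds no separate samples.

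The comparison of ages asks which genes differ between 10 and 17 months within a genotype. In WT cortex 6 of the 8 genes other than Cldn2 were lower at 17 months, with a median log2 difference of -0.68 (-0.71 with Cldn2), against -0.02 over all probes. Enpp2 differed by -0.53 (SE 0.15) without overlap between the ages, as 33.5% of all probes did, and its adjusted p in limma was 0.0959. None of the 9 genes was called, against 4.56% of all probes. Ttr differed by -1.37 within overlapping arrays. Cldn2 differed by -1.66, with 3 of 3 arrays well above background at 10 months and 1 of 3 at 17 months. Over all 9 genes, without WT cortex 10 months replicate 3 the median was -1.23, without replicate 1 it was -0.44, and within slide 1 it was -0.81.

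In Tg2576 cortex Otx2 was 2.59-fold higher at 17 months without overlap (log2 difference 1.37, SE 0.37, limma's adjusted p = 0.0666), and Aqp1 lower without overlap (-0.68, SE 0.26, adjusted p = 0.14). Of all probes 38.2% did not overlap and 10.3% were called, and of the 9 genes none was called. The other 7 genes differed by -0.12 to 0.36, Ttr by 0.18, and the median of the 9 was 0.11, against -0.01 over all probes. The slide and the age cannot be told apart here. Alongside Otx2, 8 of 9 thalamus and midbrain genes were higher, 3 of them called (Lef1 0.90, Pou4f1 2.35 and Gata3 3.48, of which 0 to 2 stayed called with 1 array left out), and alongside Aqp1 all 10 olfactory bulb genes were lower, none called, with a median of -1.87. Their part was not tested.

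In WT whole brain Kl (0.41, SE 0.13), Otx2 (0.56, SE 0.18) and Slc4a5 (0.54, SE 0.18) were higher at 17 months without overlap, and 48.9% of all probes did not overlap. Their adjusted p-values in limma were 0.0583, 0.0658 and 0.0665, so none was called, while 27.8% of all probes were. The median of the 8 genes was 0.13, against -0.03 over all probes. Slide and age cannot be told apart in this comparison either, and 5 of 8 thalamus and midbrain genes were called higher in it, whose part was not tested. In Tg2576 whole brain Clic6 was higher without overlap (0.48, SE 0.17, limma's adjusted p = 0.111), where 38.6% of all probes did not overlap, and none of the 8 genes was called, against 12.1%. Ttr differed by 0.02 in WT and -0.02 in Tg2576 whole brain, and the median in Tg2576 whole brain was -0.01, against -0.02 over all probes. In limma an unadjusted p under 0.05 was found for 1, 2, 3 and 1 genes in WT cortex, Tg2576 cortex, WT whole brain and Tg2576 whole brain. Over all probes the shares were 26%, 31%, 42.4% and 31.7%. The methods' t-test called no gene of the list after adjustment in any comparison of ages. At the methods' threshold it called Otx2 in Tg2576 cortex, where 5.03% of all probes passed, and none in WT cortex (3.19%), WT whole brain (8.91%) and Tg2576 whole brain (5.62%).

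Whole brain was compared with cortex over all 24 arrays, as the mean over genotype and age. Here 37.5% of the 40484 probes were called, and of the 9 genes Otx2 and Cldn2. Otx2 rose in whole brain by 0.87 (SE 0.25, 95% confidence interval 0.35 to 1.40, limma's adjusted p = 0.011), from a mean of -0.63 in cortex to 0.25. Cldn2, which entered the test only through cortex, was lower in whole brain, at -0.84 (SE 0.31, limma's adjusted p = 0.0394), with a mean of -4.95 in cortex and -5.79 in whole brain, where 9 of its 12 values were not well above background, so the size of its difference is not known. The other 7 genes differed by -0.45 (Folr1) to 0.30 (Slc4a5), and Ttr by -0.23 (95% confidence interval -0.86 to 0.40).

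The call of Otx2 held when any 1 of the 24 arrays was left out, with adjusted p-values in limma up to 0.0222. That of Cldn2 was lost without 14 of them, with adjusted p-values up to 0.0725: WT cortex 10 months replicates 1 and 2, Tg2576 cortex 10 months replicate 2, WT cortex 17 months replicates 2 and 3, Tg2576 cortex 17 months replicates 1 and 2, WT whole brain 10 months replicates 1 and 2, Tg2576 whole brain 10 months replicates 2 and 3, WT whole brain 17 months replicates 2 and 3 and Tg2576 whole brain 17 months replicate 2. Without WT cortex 10 months replicate 3, Kl and Folr1 were called as well, 4 genes in all, and without Tg2576 cortex 17 months replicate 3, Kl.

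Neither call held with the slide as a block, where the difference of Otx2 was 1.26 (SE 0.79, adjusted p = 0.532 in limma). Within slide 2, with 4 cortex and 4 whole brain arrays of different ages, it was -0.01 and that of Cldn2 -0.20. Taken by genotype and age, Otx2 was higher in whole brain in 3 of the 4 combinations and differed by -0.28 in Tg2576 mice of 17 months. The thalamus and midbrain list was called higher in whole brain for 5 of 9 genes (median 0.77), none of them with the slide as a block, and its part in the difference of Otx2 was not tested. Of the 25 further choroid plexus genes 4 were called higher (Prlr 0.78, Slc29a4 0.30, Rdh5 0.29 and Lmx1a 1.32) and none lower, a smaller share than the 37.5% of all probes, and none of the 4 calls held with the slide as a block.

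Genes that work with the 9 were taken from 4 lists. In the 12 genes of ion and water transport, which include the cotransporter gene Slc12a2, and in the 12 genes of folate, thyroid hormone and retinoid transport, none was called in any genotype comparison of a tissue and age. The same held for the 6 tested partners of Klotho and for the 5 or 6 tested genes of lysophosphatidic acid, the product of Enpp2. In each of these comparisons 0% of all probes were called, so the absence of calls is not particular to these lists. Averaged over tissue and age, Dio2, the deiodinase that activates thyroid hormone, was lower in Tg2576 mice by -0.40 (limma's adjusted p = 0.0266). It was the only 1 of the 36 tested genes of the 4 lists called, beside 0.212% of all probes. Its call held with the slide or the replicate number as a block, but did not survive every omission of 1 array.

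With age, 4 of the 36 tested genes of these lists were called in WT cortex, a larger share than the 4.56% of all probes. In Tg2576 cortex 3 of 35 were called, a share near the 10.3% of all probes. None of the calls in either genotype's cortex held through the omission of each array in turn. In Tg2576 whole brain 8 of 36 were called, against 12.1% of all probes, and again none held whichever array was left out. In WT whole brain 14 of 36 were called, against 27.8%, and 7 of them held whichever array was left out. Slide and age cannot be told apart there.

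Among the genes that held in WT whole brain, Stra6, the retinol transporter gene, rose by 0.93 and Slc19a1, the reduced folate carrier gene, by 0.49. The growth factor gene Igf2 rose by 1.14 and Plpp3, which encodes a phosphatase of lysophosphatidic acid, by 0.68. Fgfr1, the receptor that Klotho turns into a receptor of FGF23, rose by 0.70. Dio2 was called lower at 17 months, at -0.66.

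Against cortex, 17 of the 36 tested genes of these lists were called, beside 37.5% of all probes, and none of these calls held with the slide as a block. Of the 12 ion and water transport genes 3 were called higher in whole brain, Slc12a2 by 0.16, Car2 by 0.17 and Car14 by 0.34. Of the 12 genes of folate, thyroid hormone and retinoid transport 6 were called higher, among them Igf2 (0.49) and Stra6 (0.27), and 2 lower, among them Slc25a32 (-0.19). Of the partners of Klotho 3 of 6 were called higher, Fgfr1 (0.20), Fgf23 (0.28) and Fgf9 (0.12), and of the lysophosphatidic acid genes 3 of 6, Lpar2 (0.55), Lpar6 (0.14) and Plpp1 (0.15).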

How the data were processed

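Total RNA of male Tg2576 and WT mice, 3 samples per genotype, age and tissue, was hybridised to 1-colour Agilent mRNA arrays (24) and miRNA arrays (24). Per the file headers, the deposited intensity values are processed signals that the authors made with Agilent Feature Extraction 10.7.3.1, which subtracts background, and the files also give a flag for spots well above background. Log2 values of the same arrays were deposited too, and on each array at least 99.8% of them differed from the log2 of the intensity by 1 fixed amount (tolerance 0.01), which settled their scale and direction.

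Control spots and outlier spots were left out, spots of a probe were averaged, and the log2 intensity was taken minus the 75th percentile of the array. For miRNA arrays the percentile was taken over 403 probes detected on all arrays. Of 55681 probes, 26056 had a gene symbol through their RefSeq transcript. A probe entered a test if 2 or more arrays of either group carried that flag. Each comparison used only its own arrays in limma 3.58.1 (R 4.3.3, with data.table in version 1.17.8), with the tissue comparison over all 24 arrays, and p-values were adjusted by Benjamini-Hochberg over all tested probes at a threshold of 0.05, two-sided. "Called" means past that threshold, and the intervals are 95% confidence intervals. The precision of each value was limited by the number of arrays. Correlations used 100000 permutations (Python 3.11.15, numpy 2.4.6, pandas 2.3.3, scipy 1.17.1). The statistics were tested on simulated data.

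The 9 genes, the marker lists and the lists of partner genes were chosen with earlier results of these data known. The text names the 9 genes, genes of the other lists that were called or else the first 4 in written order, the 10 genes most like the mean of the 9, and both miRNAs. Some genes of the partner lists are counted but not reported here by name. Other genes named from a count (among them Dio2 in the averaged comparison and the largest of several called genes) were picked after their values were seen. Alternatives were array median and quantile scaling, the authors' log2 table, normexp with an offset of 50, no filter, a filter on every array, the adjusted form of the methods' t-test, the slide or the replicate number as a block, all probes of a gene, other sets of arrays, and leaving out each array. The averaged genotype comparison, the relations with marker lists, the counts without Cldn2 and the t-test at the methods' threshold were added after the values were seen. Slides were read from the file headers.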

Additional observations from a re-analysis of the deposited data

How the results depend on the processing

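In the 17-month-old cortex all alternatives kept the median genotype difference of the 9 genes above 0 (0.62 with normexp, 0.76 to 1.48 with 1 array left out). In whole brain of 17 months the median was -0.12 without a filter, and Folr1 was -0.093 as the mean over its probes. With 1 array left out the genotype difference of Ttr was -0.77 to 0.42 in the 10-month-old cortex and -0.16 to 0.52 in the 10-month-old whole brain. The interaction in whole brain had a median of -0.39 with the slide as a block and, with 1 array left out, of -0.34 to 0.062 (Ttr -0.37 to 0.31).

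Calls with age appeared under some alternatives. In WT cortex 1 gene (Enpp2) was called with all 24 arrays in 1 model. In Tg2576 cortex 1 gene (Otx2) was called with array median scaling or with the filter on every array and 2 (Otx2 and Aqp1) with normexp. In WT whole brain 1 gene (Kl) was called with array median scaling, 2 (Kl and Otx2) with normexp, 3 (also Slc4a5) with the filter on every array, and 0 to 2 with 1 array left out. There the median was 0.056 to 0.31 and Ttr -0.33 to 0.35 with 1 array left out, -0.029 with quantile normalization and -0.023 with normexp. With 1 array left out Ttr was -0.28 to 0.67 in Tg2576 cortex and -0.32 to 0.26 in Tg2576 whole brain, where blocking on the slide gave 0.26.

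Between tissues 1 gene (Otx2) was called with quantile normalization, normexp, no filter, the filter on every array, the t-test or all probes of a gene, 0 with the slide as a block and 1 to 4 with 1 array left out. Within 1 genotype and age 0, 1 (Slc4a5), 0 and 0 genes were called in WT of 10 and 17 months and Tg2576 of 10 and 17 months. In WT of 17 months the median was 0.39 and Ttr 0.75, and in Tg2576 of 17 months Otx2 was -0.28. With group means subtracted 7 relations passed in whole brain, against 2, by permutation p-values that are too small for such deviations. The causes were not tested.

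With the replicate number as a block (replicate block, paired by number) no call of the 9 genes changed, with 0 genes called in each genotype and age comparison and 2 between tissues. Between the genotypes and between the ages the numbers showed no pairing. The correlations of single same-numbered pairs ran from -0.165 to 0.186 over these 8 comparisons, 0 of which had every pair over 0.1. Whether a number links cortex with whole brain, or mRNA with miRNA arrays, was not examined.

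Chosen after the values were seen, the methods' t-test at the methods' threshold called 2 genes (Aqp1 and Slc4a5) between genotypes in the 17-month-old cortex and 1 (Otx2) with age in Tg2576 cortex, and without Cldn2 1 gene was called between tissues.

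Counts of probes depended on the arrays. In WT cortex 1802 probes were called with age and 0 to 30 with 1 array left out, in Tg2576 cortex 4025 and 23 to 1360, in WT whole brain 10479 and 5918 to 7866, and in Tg2576 whole brain 4591 and 42 to 2679. With the replicate block they were 0, 15, 4760 and 13. Other alternatives gave up to 6052, 7456, 11763 and 10146, up to 81 between genotypes, and 0 to 15891 between tissues, against 15198. The average over tissue and age gave 86, and 35 to 177 with 1 array left out, and the interactions 0, and up to 291 in cortex and 718 in whole brain. The share of called probes that were higher moved with age from 54.4% to 74.0% (Tg2576 cortex) and from 45.6% to 67.2% (WT whole brain) with array median scaling, and from 54.3% to 67.9% (Tg2576 whole brain) with normexp, which there moved the median of all probes from -0.02 to 0.08. Between tissues it moved from 47.0% to 59.7% and 60.1%, and in the averaged genotype comparison from 48.8% to 61.2% with normexp.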
